A study of Homo sapiens with 14 samples.

Results

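The hypoxia-inducible genes described here are KDM3A, ANKRD37, ALDOC, EGLN1, EGLN3, CA9, VEGFA, BNIP3, ADM and PDK1, taken with every probe set that the array annotation assigns to them. Of the 10 genes listed, 9 had at least 1 probe set, 21 probe sets in all among the 54613 analysed. No probe set was named CA9 in the annotation used here, so CA9 was not analysed here. RNA of LY2 cells was hybridised to 14 Affymetrix HG-U133 Plus 2.0 arrays. The design knocks down SRC-1, a coactivator of nuclear receptors encoded by NCOA1, by siRNA and gives tamoxifen. LY2 is an endocrine-resistant breast cancer line selected from MCF-7 cells, and grows despite anti-estrogens. The groups were SRC1 siRNA with tamoxifen (2 arrays, replicates 1 and 3), SRC1 siRNA untreated (4 arrays), control siRNA with tamoxifen (4 arrays) and control siRNA untreated (4 arrays). Tamoxifen stands for 100 nM 4-hydroxytamoxifen, the active metabolite of the drug, for 2 hours, and untreated cells received ethanol. All groups came from LY2 cells kept in 10 nM 4-hydroxytamoxifen and then grown without it for 72 hours. All were transfected with 40 nM siRNA for 24 hours before treatment, the control siRNA being scrambled. Every array is thus of 1 cell line and 1 SRC-1 siRNA product, and the labels name no low-oxygen treatment.

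In cells with enough oxygen, the prolyl hydroxylases EGLN1, EGLN2 and EGLN3 modify the alpha subunits of the hypoxia-inducible factors HIF-1 and HIF-2, and the ubiquitin ligase subunit VHL then marks them for degradation. When oxygen falls, the alpha subunits (genes HIF1A and EPAS1) persist, pair with ARNT and bind a short DNA element in genes for glycolysis, angiogenesis, mitophagy and histone demethylation. EGLN1 and EGLN3 are themselves induced and so form a feedback loop. Breast tumours are known for such induced genes, CA9 and VEGFA among them, and SRC-1 has been reported to act as a coactivator of HIF-1 in reporter assays.

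Values are the authors' deposited log2 signals. A difference is given as a difference of log2 group means ± its standard error, and 1 on this scale is a doubling. A probe set was called when its limma adjusted p (Benjamini-Hochberg over all 54613 probe sets) was under 0.05. The siRNA target NCOA1, averaged over 4 probe sets, averaged 7.74 with SRC1 siRNA against 9.06 with control siRNA under tamoxifen. Without tamoxifen its SRC1-siRNA arrays lay between 7.27 and 8.01, against 8.77 to 9.27 for the control-siRNA arrays. All 10 luminal epithelial markers lay above the median level of all probe sets (3.47) in every group. Of 6 fibroblast markers 1 did in every group, COL1A1 (10.9). Of 4 measured immune markers 1, LYZ, lay above it in both SRC1-siRNA groups and 0 did in the control-siRNA groups, and of 5 endothelial markers 1 did in untreated SRC1-siRNA cells and 0 elsewhere. The array means of the immune list were 2.56 to 2.77 with SRC1 siRNA and 2.47 to 2.59 with control siRNA, and the part of such cells in the results was not tested. The precision is limited by the number of arrays, whose medians (3.44 to 3.51) were alike. Fewer cells with a transcript and less transcript per cell cannot be told apart in such bulk samples. Replicates are called biological, with no word on separate cultures, and p-values therefore speak of the spread among these arrays alone. Arrays of different replicate numbers differed less than independent arrays would. The F statistic of the number had a median of 0.0428 over all probe sets, where 0.871 is the null value. It lay in the lowest 5% of the null for 77.8% of all probe sets. The fit without the number counts these small differences in its residual spread. Its standard errors and adjusted p-values can therefore be too small. A fit with the number as a term is therefore given where it ends a call or bears on a count.

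Knockdown of SRC-1 in untreated cells moved 4 of the 9 genes, in opposite directions. KDM3A, a demethylase of histone H3, rose, and the prolyl hydroxylase EGLN3, the ankyrin repeat protein ANKRD37 and the glycolytic enzyme ALDOC (aldolase C) fell. The changes were between 0.39 and 0.73 in size. By probe set, 1 of 21 rose and 5 fell, where 10.4% of all probe sets were called (4.99% higher and 5.36% lower). By gene, each taken at its brightest probe set, 4 of 9 were called, where 11.9% of 19775 genes were. The genes had been listed with calls of these data known, so the excess over the background is no evidence about hypoxia genes as a class. These 4 genes also passed in the fit with a replicate-number term (limma adjusted p between 0.0294 and 0.0489), where 3.94% of all probe sets were called. Each of the 4 lost its call when all arrays of at least 1 replicate number were left out. The median difference over the 9 genes was -0.12, and -0.0036 over all genes.

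**Figure D1:**
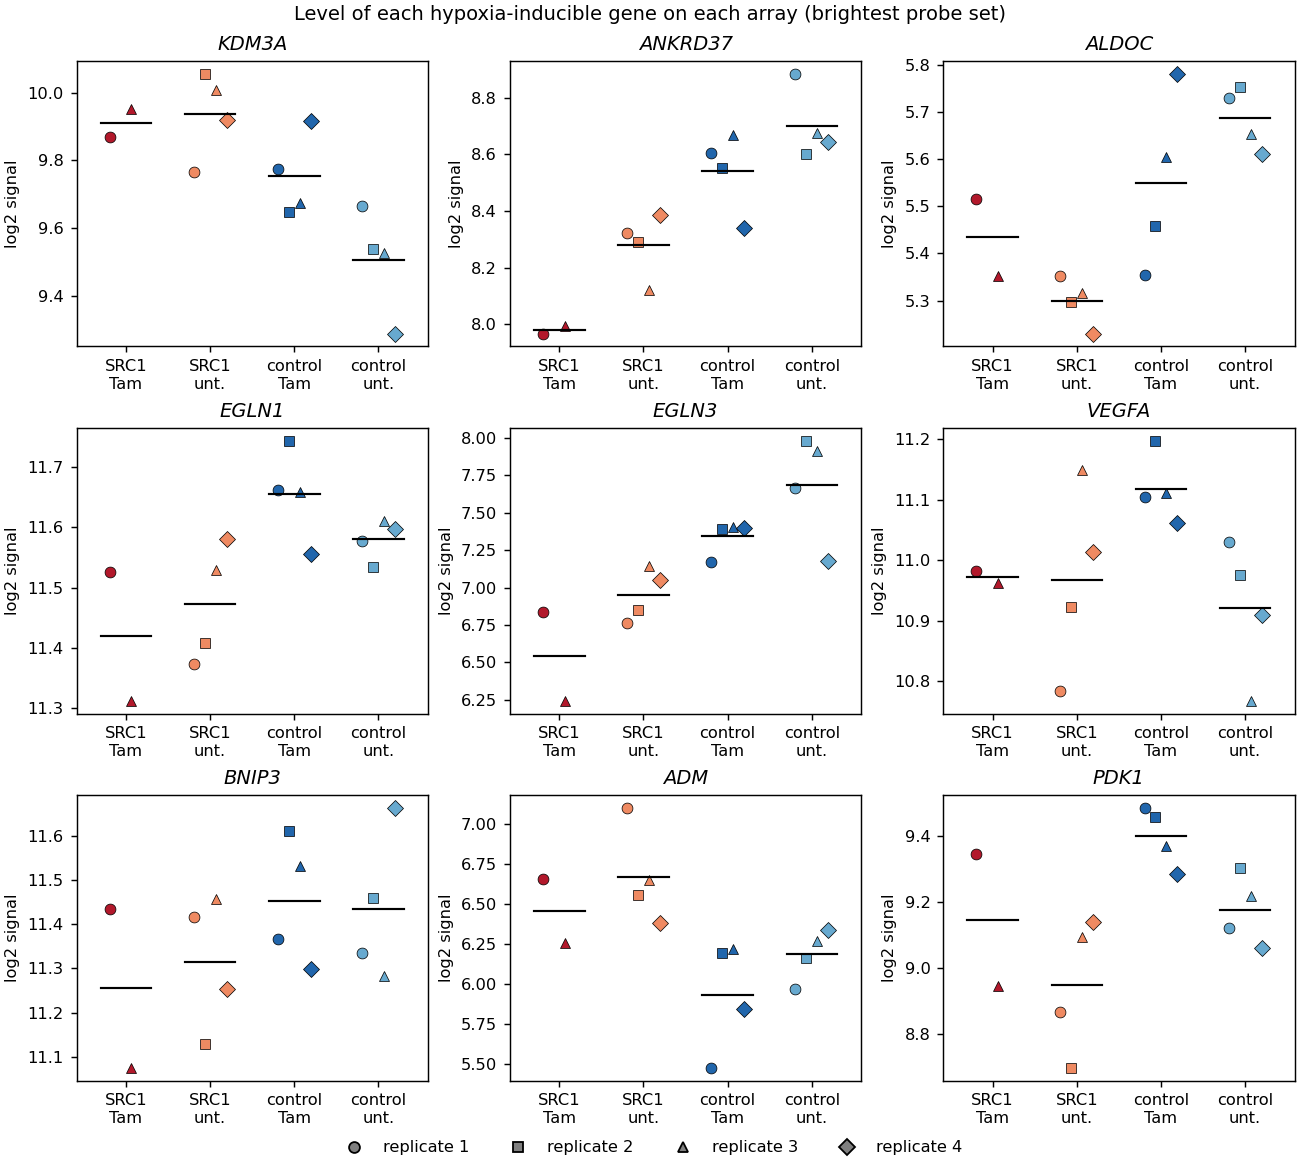
Log2 signal of the brightest probe set of each of the 9 measured genes on each of the 14 arrays, by group (Tam, tamoxifen; unt., untreated), with marker shape for the replicate number and a line at the group mean. Axes differ between genes and do not start at 0. KDM3A is higher, and ANKRD37, ALDOC and EGLN3 lower, in untreated SRC1-siRNA cells without overlap with untreated control-siRNA cells.

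KDM3A (probe set 212689_s_at) was at 9.77, 10.05, 10.01 and 9.92 in untreated SRC1-siRNA replicates 1 to 4, against 9.67, 9.54, 9.53 and 9.29 in untreated control-siRNA replicates 1 to 4. The groups did not overlap, and replicate 1 of the SRC1-siRNA group was its lowest array and lay 0.10 above the highest control array, which was also replicate 1. The mean difference was 0.43 ± 0.09, a level 1.35-fold higher (limma adjusted p = 0.00761). Between arrays of the same number it was 0.10, 0.52, 0.48 and 0.63. The other KDM3A probe set, 242758_x_at, lay near the array floor on all arrays (1.64 to 1.85) and differed by -0.03 ± 0.06 (limma adjusted p = 0.798). The mean of both probe sets differed by 0.20 and did not pass (limma adjusted p = 0.0719).

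EGLN3 had the largest fall. Its probe set 219232_s_at was at 6.76, 6.85, 7.14 and 7.05 in untreated SRC1-siRNA replicates 1 to 4, against 7.66, 7.98, 7.91 and 7.18 in untreated control-siRNA replicates 1 to 4. Replicate 4 of the control group was far below the other 3 control arrays and only just above the highest SRC1-siRNA array. The mean difference was -0.73 ± 0.17, a level 0.603 times that of control cells (limma adjusted p = 0.0143). Between arrays of the same number it was -0.90, -1.13, -0.77 and -0.12. The second EGLN3 probe set, 222847_s_at, differed by -0.50 ± 0.12 (limma adjusted p = 0.0220). The term for the replicate number ended that call (limma adjusted p = 0.0726).

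ANKRD37 (227337_at) was at 8.32, 8.29, 8.12 and 8.39 in untreated SRC1-siRNA replicates 1 to 4, against 8.88, 8.60, 8.67 and 8.64 in untreated control-siRNA replicates 1 to 4. All 4 SRC1-siRNA arrays were below all 4 control arrays. The mean difference was -0.42 ± 0.08 (limma adjusted p = 0.00641), and between arrays of the same number it was -0.56, -0.31, -0.55 and -0.26. The dim probe set 242548_x_at of this gene went the other way by 0.14 ± 0.05, within a range of 2.13 to 2.35, and was not called (limma adjusted p = 0.0715). The mean of both probe sets differed by -0.14 and did not pass (limma adjusted p = 0.127).

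ALDOC has 1 probe set, 202022_at. It was at 5.35, 5.30, 5.32 and 5.23 in untreated SRC1-siRNA replicates 1 to 4, against 5.73, 5.75, 5.65 and 5.61 in untreated control-siRNA replicates 1 to 4. Both groups were narrow, with SDs of 0.05 and 0.07, and did not overlap. The mean difference was -0.39 ± 0.08 (limma adjusted p = 0.00845). Between arrays of the same number it was -0.38, -0.46, -0.34 and -0.38, the most even of the 4 called genes.

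**Figure D2:**
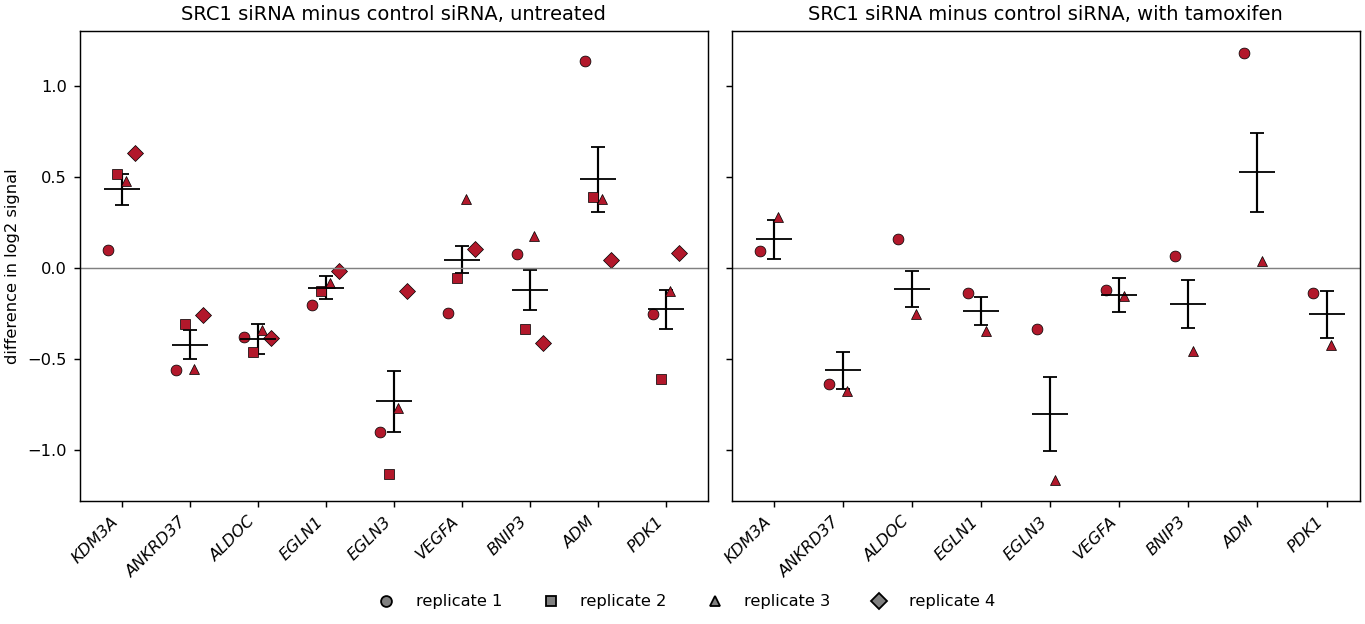
Difference in log2 signal between SRC1-siRNA and control-siRNA arrays of the same replicate number, for the brightest probe set of each gene, untreated (4 numbers) and with tamoxifen (2 numbers). Horizontal bars are differences of group means and whiskers 1 standard error. In untreated cells the 4 differences of ALDOC lie between -0.46 and -0.34, and those of EGLN3 between -1.13 and -0.12.

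The promoters of these 4 called genes are shown because hypoxia-inducible factors bind a short core element, searched for here as ACGTG and GCGTG on both strands. Each window runs from 250 bases before to 50 bases after a RefSeq transcript start (GRCh38.p14), is written 5′ to 3′ on the gene's strand, and has every match in capitals. The windows are ANKRD37 at chr4:185396591-185396890 (plus strand), ALDOC at chr17:28576846-28577145 (minus strand), EGLN3 at chr14:33951025-33951324 (minus strand) and KDM3A at chr2:86441121-86441420 (plus strand, 1 of its 2 windows).
ANKRD37: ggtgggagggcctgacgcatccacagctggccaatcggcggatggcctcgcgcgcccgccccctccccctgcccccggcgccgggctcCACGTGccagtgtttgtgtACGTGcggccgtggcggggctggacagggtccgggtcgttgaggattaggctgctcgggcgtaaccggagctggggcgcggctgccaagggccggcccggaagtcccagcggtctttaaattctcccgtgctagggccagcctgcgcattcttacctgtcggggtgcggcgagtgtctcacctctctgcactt
ALDOC: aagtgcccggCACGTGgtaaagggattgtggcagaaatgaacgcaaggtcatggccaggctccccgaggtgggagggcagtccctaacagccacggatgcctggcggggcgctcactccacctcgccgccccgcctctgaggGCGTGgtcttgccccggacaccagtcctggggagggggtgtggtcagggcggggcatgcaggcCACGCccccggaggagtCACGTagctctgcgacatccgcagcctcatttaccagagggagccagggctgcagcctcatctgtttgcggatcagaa
EGLN3: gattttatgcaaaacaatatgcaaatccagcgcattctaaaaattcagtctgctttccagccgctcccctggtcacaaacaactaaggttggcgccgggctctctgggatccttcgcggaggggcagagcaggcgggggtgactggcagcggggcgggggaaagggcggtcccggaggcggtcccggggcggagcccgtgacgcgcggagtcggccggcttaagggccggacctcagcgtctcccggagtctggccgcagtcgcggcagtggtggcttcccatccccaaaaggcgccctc
KDM3A: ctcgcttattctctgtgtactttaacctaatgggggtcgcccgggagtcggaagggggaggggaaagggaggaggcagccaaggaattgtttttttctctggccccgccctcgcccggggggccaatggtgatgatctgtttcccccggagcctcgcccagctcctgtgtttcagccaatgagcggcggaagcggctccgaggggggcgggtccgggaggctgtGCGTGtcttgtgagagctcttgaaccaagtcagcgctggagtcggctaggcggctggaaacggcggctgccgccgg
The ANKRD37 window holds ACGTG at 3 places, 2 of which overlap on opposite strands in the palindrome CACGTG. The ALDOC window holds 3 places of ACGTG, 2 of them overlapping in the same way, and 2 of GCGTG. KDM3A has 1 GCGTG, and the EGLN3 window has neither motif in these 300 bases. Among all 35116 RefSeq windows of this length, 21.4% hold ACGTG, 36.5% hold GCGTG and 48.4% hold at least 1 of them. Of the 8 measured genes with a window in the table, 7 hold at least 1 motif in at least 1 window, all but EGLN3. A gene with 2 windows counted if either held a match, so this count by gene cannot be set against the shares by window. A match is a description of the letters, not of a bound site.

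The feedback hydroxylase EGLN1, the main enzyme that marks HIF alpha subunits at normal oxygen, was measured by 4 probe sets that differed from each other. The brightest, 223046_at, was at 11.37, 11.41, 11.53 and 11.58 in untreated SRC1-siRNA replicates 1 to 4, against 11.58, 11.53, 11.61 and 11.60 in untreated control-siRNA replicates 1 to 4. These groups overlapped, and the difference of -0.11 ± 0.06 was not called (limma adjusted p = 0.320). Probe set 224314_s_at, much dimmer, was at 4.15, 4.08, 3.99 and 4.12 in untreated SRC1-siRNA replicates 1 to 4, against 4.46, 4.52, 4.48 and 4.62 in untreated control-siRNA replicates 1 to 4. Its groups lay apart, and its fall of 0.44 on the log2 scale (limma adjusted p = 0.00181) was the smallest p of the 21 probe sets. The remaining probe sets differed by -0.13 ± 0.10 (221497_x_at) and 0.09 ± 0.05 (223045_at, near the floor), and neither was called.

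ADM encodes adrenomedullin, a vasodilator peptide. It was at 7.10, 6.55, 6.65 and 6.38 in untreated SRC1-siRNA replicates 1 to 4, against 5.96, 6.16, 6.27 and 6.34 in untreated control-siRNA replicates 1 to 4. The groups did not overlap, but the difference of 0.49 ± 0.18 did not pass (limma adjusted p = 0.100). It was largest at replicate 1, with 1.13 between arrays of the same number, where replicates 2 to 4 gave 0.39, 0.38 and 0.04.

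The other 3 genes were not called in untreated cells. VEGFA, the main angiogenic growth factor, differed by 0.05 ± 0.08 at its brightest probe set (95% interval -0.12 to 0.21), and its 4 probe sets gave 0.05 to 0.15. The mitophagy receptor BNIP3 differed by -0.12 ± 0.11 (95% interval -0.36 to 0.11) at 201849_at and by 0.01 ± 0.07 at 201848_s_at. PDK1, which inhibits pyruvate dehydrogenase, differed by -0.23 ± 0.11 (95% interval -0.45 to 0.00) at 226452_at, with replicate differences from -0.61 to 0.08. In all, 8 of the 21 probe sets had groups that did not overlap, where 16.2% of all probe sets did.

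**Figure D3:**
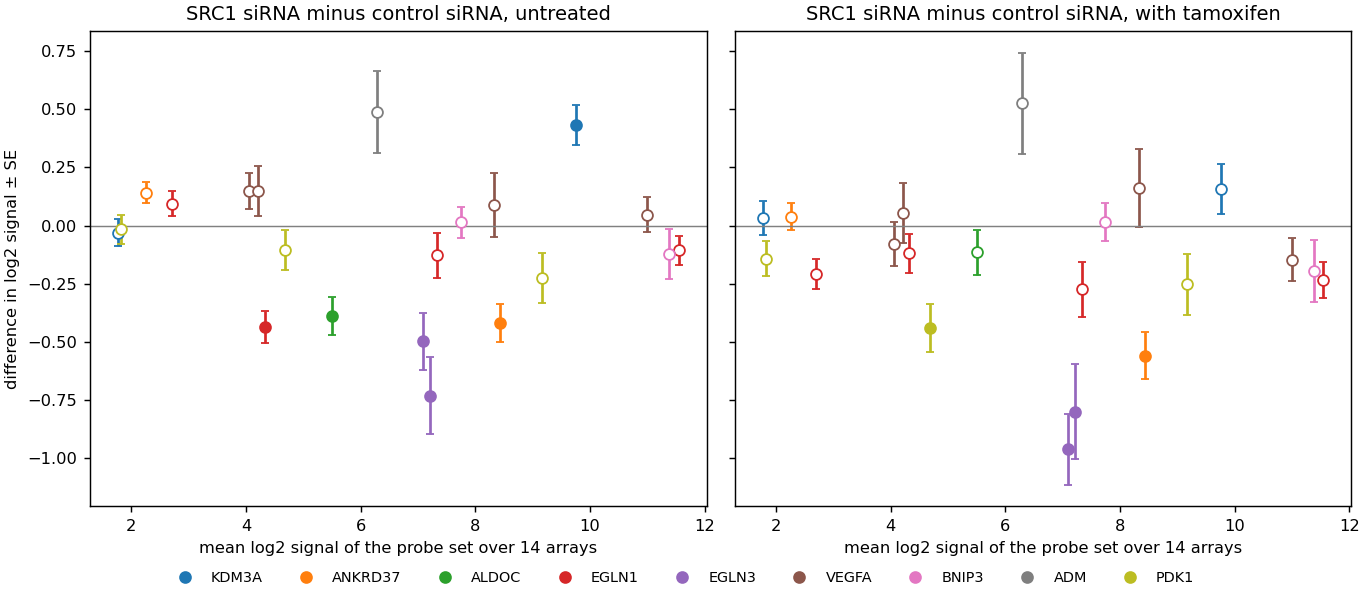
Difference in log2 signal ± 1 standard error of each of the 21 probe sets against its mean level over the 14 arrays, coloured by gene, filled where the limma adjusted p is under 0.05. Probe sets below a level of about 3 sit near the array floor. Called probe sets in untreated cells are KDM3A above 0 and EGLN1, ALDOC, ANKRD37 and both of EGLN3 below 0.

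The knockdown was also compared in tamoxifen-treated cells, with 2 arrays against 4. Again EGLN3 and ANKRD37 fell, and a probe set of PDK1 fell with them, while KDM3A and ALDOC were not called. Of the 21 probe sets 4 fell and 0 rose, where 13.5% of all probe sets were called (5.76% higher and 7.70% lower), and by brightest probe set 2 of 9 genes were called, where 15.2% of all genes were. The term for the number left 2 of the 4 probe sets called, 227337_at of ANKRD37 and 222847_s_at of EGLN3, where it left 2.24% of all. The SRC1-siRNA arrays cover 2 of the 4 replicate numbers.

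ANKRD37 was at 7.97 and 7.99 in SRC1-siRNA tamoxifen replicates 1 and 3, against 8.60, 8.55, 8.67 and 8.34 in control-siRNA tamoxifen replicates 1 to 4. The SRC1-siRNA arrays were the lowest of all 14 for this probe set. The difference was -0.56 ± 0.10 (limma adjusted p = 0.00425), and it was -0.64 and -0.67 between arrays of number 1 and 3. Without SRC1 siRNA tamoxifen replicate 1 it was -0.55 (limma adjusted p = 0.0523).

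EGLN3 was at 6.84 and 6.24 at 219232_s_at in SRC1-siRNA tamoxifen replicates 1 and 3, against 7.17, 7.39, 7.41 and 7.40 in control-siRNA tamoxifen replicates 1 to 4. Both SRC1-siRNA arrays were below all control arrays, replicate 3 by far the more. The difference was -0.80 ± 0.20 (limma adjusted p = 0.0219). The term for the replicate number ended the call (limma adjusted p = 0.0917), as did leaving out SRC1 siRNA tamoxifen replicate 3, with a difference of -0.50 (limma adjusted p = 0.215). At 222847_s_at EGLN3 was at 6.56 and 6.34 in SRC1-siRNA tamoxifen replicates 1 and 3, against 7.03, 7.50, 7.65 and 7.46 in control-siRNA tamoxifen replicates 1 to 4. That difference was -0.96 ± 0.15 (limma adjusted p = 0.00237).

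KDM3A was at 9.87 and 9.95 in SRC1-siRNA tamoxifen replicates 1 and 3, against 9.77, 9.65, 9.67 and 9.92 in control-siRNA tamoxifen replicates 1 to 4. Control replicate 4 lay between both SRC1-siRNA arrays, and the difference of 0.16 ± 0.11 was not called (95% interval -0.07 to 0.39, limma adjusted p = 0.353). ALDOC was at 5.52 and 5.35 in SRC1-siRNA tamoxifen replicates 1 and 3, against 5.35, 5.46, 5.60 and 5.78 in control-siRNA tamoxifen replicates 1 to 4. These groups overlapped, with a difference of -0.12 ± 0.10 (95% interval -0.33 to 0.10, limma adjusted p = 0.470).

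For the remaining genes, the PDK1 probe set 206686_at was at 4.58 and 4.23 in SRC1-siRNA tamoxifen replicates 1 and 3, against 4.92, 4.75, 4.90 and 4.81 in control-siRNA tamoxifen replicates 1 to 4. Its fall of 0.44 on the log2 scale passed (limma adjusted p = 0.0161; 0.0887 with a replicate-number term), whereas the brightest PDK1 probe set differed by -0.25 ± 0.13 and did not (limma adjusted p = 0.216). EGLN1 differed by -0.24 ± 0.08 at its brightest probe set (limma adjusted p = 0.0601), and the probe set called in untreated cells, 224314_s_at, by -0.12 ± 0.08 (limma adjusted p = 0.364). ADM differed by 0.53 ± 0.22 (limma adjusted p = 0.125), again largest at replicate 1, with 1.18 and 0.04 between arrays of number 1 and 3. At their brightest probe sets VEGFA differed by -0.15 ± 0.09 and BNIP3 by -0.20 ± 0.13, and neither was called. The other VEGFA probe sets gave -0.08 to 0.16 and the other BNIP3 probe set 0.01 ± 0.08, none of them called. Of the 21 probe sets 10 had groups that did not overlap, where 36.0% of all probe sets did.

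Whether the knockdown differences themselves changed with tamoxifen was tested by the interaction. No probe set of the 21 passed in limma, where 0.280% of all probe sets did. An unadjusted limma p under 0.05 was found for 5, and the share of all probe sets at that looser threshold was not counted. The interaction was -0.27 ± 0.14 for KDM3A (limma adjusted p = 0.329) and 0.27 ± 0.13 for ALDOC (limma adjusted p = 0.288), so the difference between treatments was not shown for either. In a fit of the knockdown over both treatments 2 probe sets rose and 7 fell, where 17.0% of all were called (7.58% higher and 9.44% lower). ADM was called there (0.50 ± 0.13, limma adjusted p = 0.0171), but not once the replicate number was a term (adjusted p = 0.0600). That fit called 5 of the 21 and 9.21% of all. EGLN3 (-0.76 ± 0.12) and ANKRD37 (-0.48 ± 0.06) fell and KDM3A (0.32 ± 0.07) rose in both fits, while ALDOC (-0.28 ± 0.07) was not called with the term (adjusted p = 0.0528). EGLN1 also fell in both fits at 224314_s_at (-0.31 ± 0.07, limma adjusted p = 0.00462, and 0.0247 with the term). Its brightest probe set passed only without the term (-0.16 ± 0.05, limma adjusted p = 0.0458, and 0.158 with it). So did PDK1 at 206686_at (-0.24 ± 0.08, limma adjusted p = 0.0459, and 0.133 with it).

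**Figure D4:**
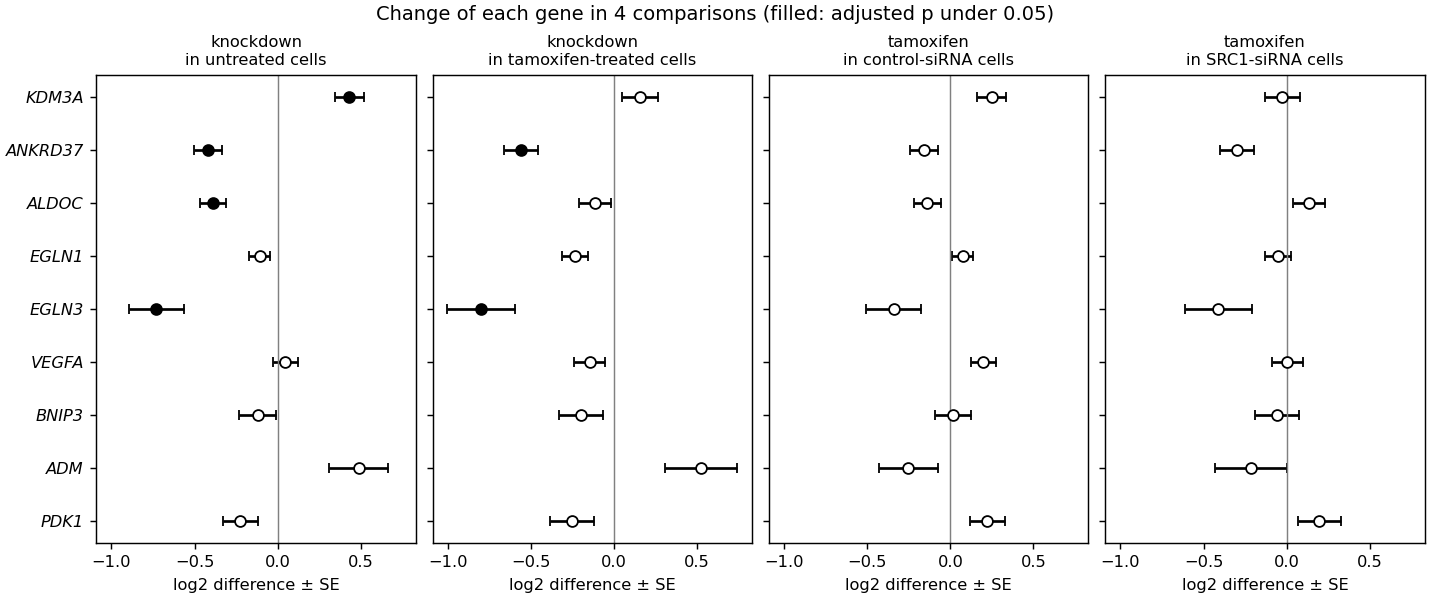
Difference in log2 signal ± 1 standard error of the brightest probe set of each gene in 4 comparisons: SRC1 siRNA minus control siRNA, untreated and with tamoxifen, and tamoxifen minus untreated with either siRNA. Filled points have a limma adjusted p under 0.05: 4 genes in the first comparison, 2 in the second and 0 in both tamoxifen comparisons.

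Treatment with tamoxifen for 2 hours called none of these genes. In control-siRNA cells 0 of 21 probe sets passed in limma, where 0.163% of all probe sets were called. In SRC1-siRNA cells 0 of 21 passed, where 1.51% of all were called. In each comparison 3 of the 21 had an unadjusted limma p under 0.05. The share of all probe sets at that looser threshold was not counted. Both comparisons use groups of the knockdown comparisons, so the values are not independent of those above. At the brightest probe sets, the largest differences in control-siRNA cells were those of EGLN3 (-0.34 ± 0.17, limma adjusted p = 0.341), ADM (-0.25 ± 0.18, adjusted p = 0.518) and KDM3A (0.25 ± 0.09, adjusted p = 0.200). The second EGLN3 probe set, 222847_s_at, did not fall there (0.08 ± 0.12, limma adjusted p = 0.811). KDM3A was higher with tamoxifen at all 4 numbers, by 0.11, 0.11, 0.15 and 0.63. VEGFA was at 11.10, 11.20, 11.11 and 11.06 in control-siRNA tamoxifen replicates 1 to 4, against 11.03, 10.98, 10.77 and 10.91 in control-siRNA untreated replicates 1 to 4. It was the 1 probe set of the 21 whose groups lay apart in this comparison, where 8.86% of all did, and its difference of 0.20 ± 0.08 was not called (limma adjusted p = 0.231). In SRC1-siRNA cells, ANKRD37 differed by -0.30 ± 0.10 (limma adjusted p = 0.148) and EGLN3 by -0.41 ± 0.20 (limma adjusted p = 0.332). Of the 21 probe sets 5 had groups that did not overlap there, where 24.4% of all did.

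Among 18 HIF subunits and regulators, all measured, 3 rose and 0 fell with the knockdown in untreated cells, where 11.9% of all genes were called. EPAS1, the HIF-2 alpha subunit, was at 9.62, 9.52, 9.37 and 8.61 in untreated SRC1-siRNA replicates 1 to 4, against 8.04, 8.14, 8.35 and 8.53 in untreated control-siRNA replicates 1 to 4. The groups just separated, because replicate 4 of the SRC1-siRNA cells was close to replicate 4 of the controls. EPAS1 rose by 1.02 ± 0.20 (limma adjusted p = 0.00639), with 1.59, 1.37, 1.02 and 0.08 between arrays of the same number. With tamoxifen it was at 9.74 and 9.38 in SRC1-siRNA replicates 1 and 3, against 7.56, 7.86, 8.03 and 8.14 in control-siRNA replicates 1 to 4, a rise of 1.67 ± 0.24 (limma adjusted p = 0.00166). CITED2, which competes with HIF alpha subunits for the coactivators CREBBP and EP300, rose by 0.48 ± 0.09 in untreated cells (limma adjusted p = 0.00409) and by 0.46 ± 0.11 with tamoxifen (limma adjusted p = 0.0143; 0.102 with a replicate-number term). VHL rose by 0.42 ± 0.10 in untreated cells (limma adjusted p = 0.0144; 0.0612 with a replicate-number term). With tamoxifen VHL was not higher, at a mean of 8.118 with SRC1 siRNA against 8.175 with control siRNA. HIF1A differed by 0.04 ± 0.05 in untreated cells and by -0.11 ± 0.06 with tamoxifen, and ARNT by 0.05 ± 0.06 and 0.07 ± 0.07, none of them called.

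**Figure D5:**
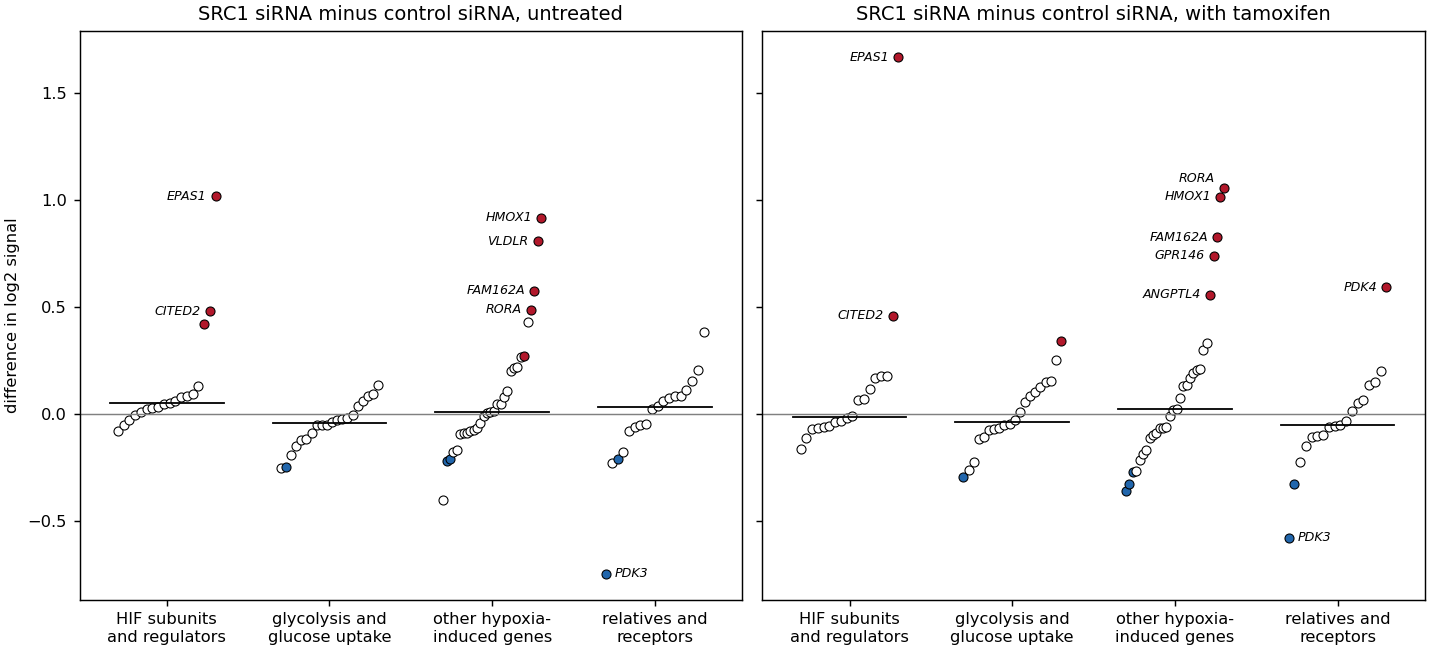
Differences in log2 signal between SRC1-siRNA and control-siRNA cells for the genes of 4 lists around the hypoxia pathway, each by its brightest probe set, sorted within a list and with a line at the list median. Red points were called higher and blue points lower (limma adjusted p under 0.05), and called genes beyond 0.45 in size are named. EPAS1 is the highest point in both panels (1.02 and 1.67) and PDK3 the lowest (-0.74 and -0.57).

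Of 20 measured among 22 listed glycolysis and glucose uptake genes, 0 rose and 1 fell in untreated cells, where 11.9% of all genes were called (list median -0.04, and -0.0036 for all genes), the phosphofructokinase PFKM (-0.25 ± 0.05, limma adjusted p = 0.00953). With tamoxifen 1 rose and 1 fell, where 15.2% of all genes were called: PFKM fell (-0.29 ± 0.06) and PFKP, another phosphofructokinase, rose (0.34 ± 0.09, limma adjusted p = 0.0249). Both counts are within 2 genes of the share over all genes. None of these passed with a replicate-number term. The glucose transporter SLC2A1 (-0.0039 ± 0.07), PGK1 (-0.02 ± 0.04) and LDHA (-0.02 ± 0.04), widely used HIF-1 targets, were not called in untreated cells.

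Of 30 measured among 32 other hypoxia-induced genes, 5 rose and 2 fell in untreated cells (23.3% called, against 11.9% of all genes). With a replicate-number term 2 rose and 0 fell, where 3.94% of all probe sets were called. Heme oxygenase HMOX1 (0.92 ± 0.15) and the lipoprotein receptor VLDLR (0.81 ± 0.13) passed in both fits. The mitochondrial protein FAM162A (0.58 ± 0.13), the nuclear receptor RORA (0.49 ± 0.14) and the sterol sensor partner INSIG2 (0.27 ± 0.06) rose, and the BNIP3 relative BNIP3L (-0.21 ± 0.06) and the MYC antagonist MXI1 (-0.22 ± 0.06) fell, none of them passing with the term. HMOX1 and VLDLR also answer to signals other than oxygen. With tamoxifen 5 rose and 3 fell (26.7% called, against 15.2% of all genes), led by RORA (1.06 ± 0.17) and HMOX1 (1.02 ± 0.19). VLDLR averaged 5.984 with SRC1 siRNA against 5.773 with control siRNA under tamoxifen. That gap was smaller than in untreated cells (6.448 against 5.641). GBE1, which branches glycogen (-0.36 ± 0.07), BNIP3L (-0.32 ± 0.07) and MXI1 (-0.27 ± 0.08) fell. With the term 2 rose and 0 fell, where 2.24% of all probe sets were called. The list was chosen with earlier results of these data known, so these shares are no evidence about hypoxia genes as a class. The list medians were 0.01 in untreated cells and 0.02 with tamoxifen.

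Among 18 measured relatives and receptors of the listed genes, 0 rose and 2 fell in untreated cells, a share of 11.1% that is near the 11.9% of all genes. PDK3, a pyruvate dehydrogenase kinase like PDK1, was at 9.09, 9.34, 9.32 and 9.60 in untreated SRC1-siRNA replicates 1 to 4, against 10.17, 10.17, 10.04 and 9.93 in untreated control-siRNA replicates 1 to 4. It fell by 0.74 on the log2 scale (limma adjusted p = 0.00105; 0.00994 with the term), the groups lying well apart. With tamoxifen PDK3 fell by 0.57 on the log2 scale (limma adjusted p = 0.0111) and PDK4 rose (0.59 ± 0.17, limma adjusted p = 0.0348), neither passing with the term. The KDM3A relatives KDM3B (0.06 ± 0.05) and JMJD1C (0.21 ± 0.10) were not called in untreated cells, nor were VEGFC (-0.23 ± 0.11) and EGLN2 (0.03 ± 0.05), which was dim at 3.33 in SRC1-siRNA and 3.31 in control-siRNA cells.

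Over the 14 arrays, the genes most like each called gene were sought among 12263 genes above the median level. They were outside the hypoxia genes and the 4 lists used here, with 1 exception. KDM3A was most like LZTS2 (Pearson r = 0.930) and KDM5B (r = 0.926), ANKRD37 most like AFAP1L2 (r = 0.935) and NDUFA12 (r = 0.932), and ALDOC most like PBX3 (r = 0.905) and DFFB (r = 0.895). EGLN3 was most like GAB2 and MYCL (both r = 0.905), followed by BNIP3L, itself hypoxia-induced (r = 0.900). All points share the same arrays and the same difference between siRNA groups, and these are the highest of many values.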

How the data were processed

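RNA of LY2 cells was amplified (NuGEN Ovation) and biotin-labelled before hybridisation to 14 arrays, per the labels' protocols. The authors deposited log2 signals for each probe set on each array, with the base read from a range of 0.912 to 15.5. The submitters' processing notes name R 2.9.2, and how background, normalization and summary were done is not stated there. Quartiles were nearly equal across arrays (upper quartile 7.80 to 7.86), and values were used as deposited.

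Leaving out 62 array control probe sets, 54613 of 54675 were analysed. In the platform annotation 41091 had 1 gene symbol, 1801 several and 11721 none, and symbols were updated through RefSeq by gene ID (41037 matched). A gene is represented by its brightest probe set. The 4 group means were fitted to the 14 arrays with limma 3.58.1 in R 4.3.3 (lmFit, eBayes, two-sided, Benjamini-Hochberg). The knockdown over both treatments came from a model of siRNA plus tamoxifen. The code was tested on simulated data. The genes, lists and tests were chosen with earlier results of these data known.

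Named genes are the listed members, NCOA1, called genes of the 4 pathway lists and up to 3 others of each, and the 3 genes most like each member. SLC2A1, PGK1, LDHA, HIF1A, ARNT, KDM3B, VEGFC, JMJD1C and EGLN2 were partly named after their values were seen. Alternatives were the replicate number as a term, a filter on dim probe sets, quantile normalization, median centring, fewer arrays in the fit, trend and robust eBayes, array weights, the mean over probe sets and leaving out arrays. Leaving out all arrays of a number was added after seeing the data.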

Additional observations from a re-analysis of the deposited data

Results flagged for a closer look

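Among 63 sets of 4 arrays (21 probe sets in 3 groups), 1 held an array far from the others, where chance gives about 1 in 20. EGLN3 (219232_s_at) was at 7.17 in control siRNA tamoxifen replicate 1, and the nearest of the other 3 arrays was at 7.39, a gap that takes up 0.946 of the group's range. Without this array the EGLN3 difference between SRC1-siRNA and control-siRNA cells with tamoxifen was -0.86 (limma adjusted p = 0.0266), against -0.80 with it.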

How the results depend on the processing

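Over the 9 genes, 6 comparisons and their alternatives, 1320 of 1374 values kept their side of the threshold, 43 lost a call, 11 gained one, and 0 called values changed direction; uncalled values changed sign in 51. With the replicate number as a block, all probe sets called numbered 2154 and 1224 for the knockdown in untreated and tamoxifen-treated cells (5653 and 7350 without it), 1 and 0 for tamoxifen in control-siRNA and SRC1-siRNA cells (89 and 824), 0 for the interaction (153) and 5031 over both treatments (9296). Hypoxia probe sets called numbered 5, 2 and 5 with the block, against 6, 4 and 9. Deviations of the 18 same-number pairs correlated at -0.585 to -0.0421, and 0 of 14 arrays correlated best with their own number. With so little difference between numbers in the values (median F 0.0428), this check cannot show whether the numbers pair the arrays. Above the median level 246 probe sets passed for tamoxifen in SRC1-siRNA cells and 23 for the interaction. Median centring gave 35 for tamoxifen in control-siRNA cells. It also moved the split of higher and lower calls to 413 and 496 for tamoxifen in SRC1-siRNA cells (494 and 330 as deposited) and to 63 and 111 for the interaction (73 and 80). For the knockdown with tamoxifen the split moved to 2653 and 5366 (3147 and 4203 as deposited), 8019 calls in all. Hypoxia probe sets called lower there then numbered 6, against 4 as deposited, and 0 were called higher. Fits of only the arrays compared gave 4025 for the knockdown with tamoxifen, and 2 and 109 for tamoxifen in control-siRNA and SRC1-siRNA cells; array weights gave 232 and 371. Leaving out single arrays gave 3626 to 5750 and 1390 to 7215 probe sets for the knockdown in untreated and treated cells, 1 to 68 and 3 to 879 for tamoxifen in control-siRNA and SRC1-siRNA cells, 7 to 346 for the interaction and 7358 to 9374 over both treatments. The hypoxia probe sets called were then 5 to 6, 2 to 6 (2 without SRC1 siRNA tamoxifen replicate 3), 0 for both tamoxifen comparisons and the interaction, and 7 to 11. Leaving out all arrays of number 2 gave 2 hypoxia probe sets in untreated cells and 5 over both treatments, with the share of all probe sets not counted. KDM3A, ALDOC and EGLN3 then lost their calls in untreated cells (limma adjusted p = 0.0637, 0.0746 and 0.127). Leaving out number 1 or 3 leaves 1 SRC1 siRNA tamoxifen array, so only differences are given. Without number 1, EGLN3 and ANKRD37 lost their calls in untreated cells (-0.67 and -0.37) and with tamoxifen (-1.15 and -0.53). Without number 3, KDM3A (0.42), ALDOC (-0.41) and ANKRD37 (-0.37) lost theirs in untreated cells, and EGLN3 (-0.48) and ANKRD37 (-0.53) with tamoxifen. These fits have fewer arrays, and the cause of the other shifts was not tested. Signals near the array floor are compressed, which limits the dim probe sets of KDM3A, ANKRD37, EGLN1 and PDK1.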

Other observations

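The hypoxia genes not called at their brightest probe set in untreated cells also had close companions over the same 14 arrays. They were sought among the same 12263 genes above the median level. EGLN1 was most like SERP1 (Pearson r = 0.965) and PIGX (r = 0.961), followed by RHOA (r = 0.959). PDK1 was most like the checkpoint kinase ATR (r = 0.946), and ADM most like CLDN23 (r = 0.943) and GDF15, a stress-induced cytokine (r = 0.938). VEGFA was most like ZNF567 (r = 0.947) and BNIP3 most like DNAH3 (r = 0.954). These are the highest of many values and share the group differences of the arrays.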
